A study of Mus musculus with 8 samples.

Results

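The genes described are the CD4 and CD8 lineage genes, which are 7 of the 52636 rows of the table, taken by name: the coreceptor genes *Cd4*, *Cd8a* and *Cd8b1*, the transcription factor genes *Zbtb7b*, *Runx1* and *Runx3*, and *Crtam*. They were followed across RNA-seq libraries of splenic T cells of mice aged 6 to 8 wk to ask whether the cytotoxic programme of CD4+ T cells under chronic CD27 engagement came with a change of CD4 lineage identity. Control mice were CD27+/- and CD70Tg mice were CD11c-Cd70tg;CD27+/-, so that both carried 1 functional copy of *Cd27*, and in the latter the CD11c promoter, mainly active in dendritic cells, drives the CD27 ligand CD70. Mice of both genotypes came from a cross to Foxp3 eGFP reporter mice. Tconvs (CD4+ Foxp3-) and Tregs (CD4+ Foxp3+) gave 2 libraries per genotype, 8 in all, each from 200000 cells. Cells carrying CD8β, CD11c, MHC class II or other surface markers were depleted with antibodies, for Tconvs also cells carrying CD25, before CD3+ CD4+ cells were sorted by GFP, so that the sort itself bounds the levels of *Cd4* and *Cd8b1*. The columns of the control groups are named KO in the table, while the labels give wild type, and these columns were taken as the CD27+/- controls.

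CD4 and CD8 are the coreceptors that bind MHC class II and class I beside the T cell receptor, CD8 as an αα homodimer or as an αβ heterodimer of the *Cd8a* and *Cd8b1* products. In the thymus, Th-POK, the product of *Zbtb7b*, holds cells in the CD4 helper lineage and represses the CD8 genes, whereas Runx3 silences *Cd4* and directs cells to the cytotoxic CD8 lineage, and Runx1 acts in earlier stages. Mature CD4+ T cells keep Th-POK, and CD4+ cells that turn cytotoxic in the gut are known to lose it, to gain Runx3 and to express CD8αα. CRTAM is a surface receptor known to mark activated CD4+ T cells that acquire cytotoxic function.

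The authors scaled the reads of each library to 20 M and rounded the values up. Judged from the steps between low values, the reads on genes were 6.943 to 33.34 M in the Tconv libraries and 1.92 to 4.56 M in the Treg libraries, and the numbers of the deepest library and of the first control Tconv library (19.302 M) are the least certain. The value of 3 reads, taken as a floor, was 1.803 to 8.643 in Tconvs and 13.1 to 31.4 in Tregs, and covers counting error only. Log2 fold changes and adjusted p-values are from limma on log2(value + 5) over the 12798 genes that reached 60 in 2 or more libraries, among them all 7 lineage genes. To be called, a gene needed an adjusted p under 0.05 together with a log2 fold change beyond 1 in size. Nothing in the labels says that the libraries came from separate mice, so p-values measure the spread between these libraries, which may be technical. T cell markers were high in all libraries, and 0 of 9 were called in either subset (lowest adjusted p 0.021, *Cd28* in Tregs, by limma). *Foxp3* lay between 19769 and 21367 in Tregs and between 1039 and 1497 in Tconvs.

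*Cd4* RNA stayed high in every library of CD70Tg mice. In Tconvs its values were 27542 and 25914 in control and 31244 and 27922 in CD70Tg libraries. Treg values were 16290 and 16100 in control and 17700 and 17541 in CD70Tg libraries. In both subsets the CD70Tg libraries lay above the controls without overlap, and neither difference was called. Libraries of the genotypes did not overlap, in either direction, for 45.1% of all genes in Tconvs and 53.7% in Tregs. The log2 fold change was 0.14 (SE 0.12, 95% interval -0.11 to 0.40, adjusted p = 0.61, limma) in Tconvs. It was 0.12 (SE 0.12, 95% interval -0.14 to 0.38, adjusted p = 0.62) in Tregs. Both intervals leave out a fall of *Cd4* by more than 0.14 on this scale. Tregs held less *Cd4* RNA than Tconvs, by -0.72 in controls (adjusted p = 0.00017) and by -0.75 in CD70Tg mice (adjusted p = 0.00016), under the fold threshold in both. The gene, at chr6:124864692-124888221 (GRCm38, minus strand), had the highest level per kb of exon among the lineage genes, with a mean of 6629 in control Tconvs and 4017 in control Tregs.

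**Figure D1:**
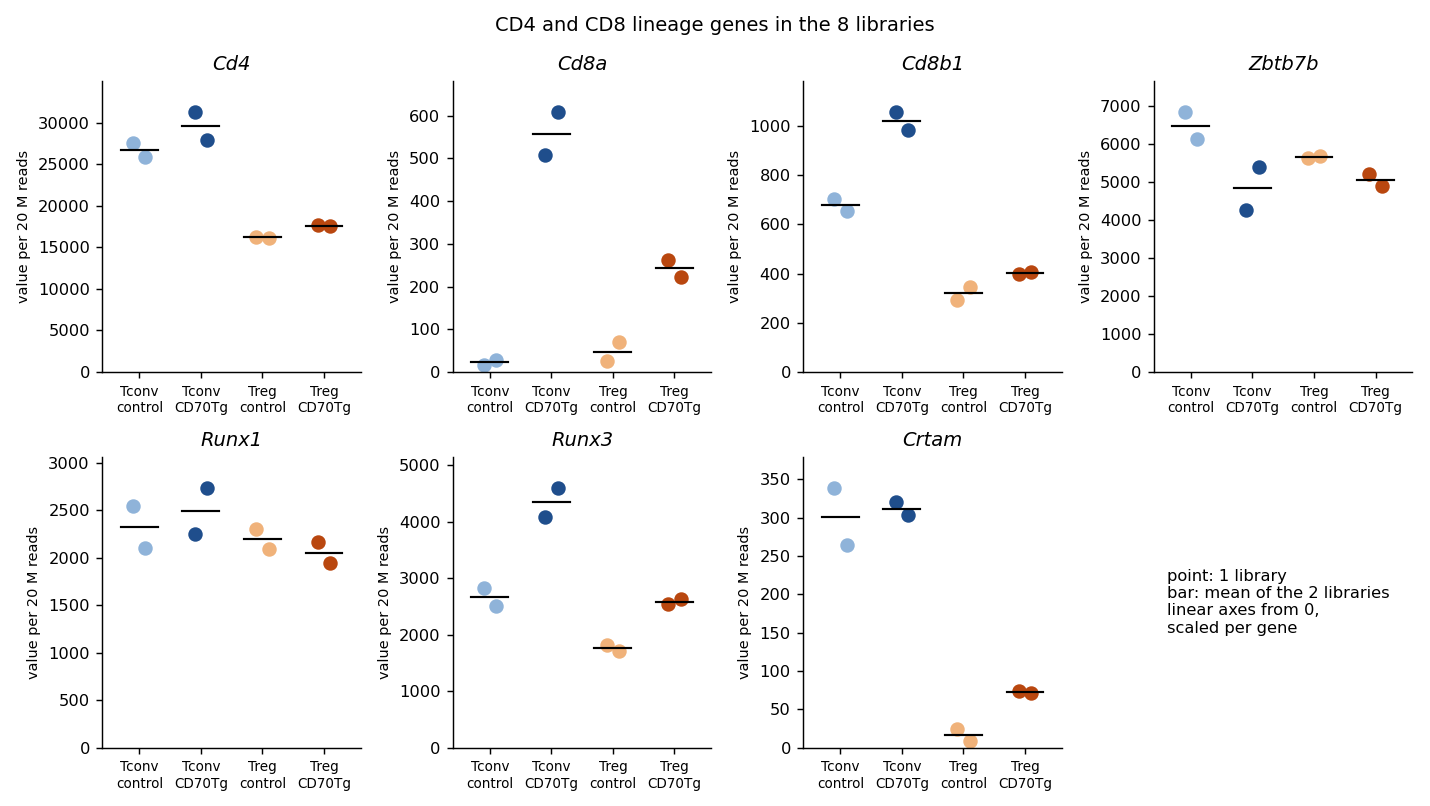
Values per 20 M reads (linear axes from 0, scaled per gene) of the 7 CD4 and CD8 lineage genes in the 4 groups, with 1 point per library and a bar at the mean of 2 libraries. *Cd8a* lies at 508 and 608 in CD70Tg Tconvs against 17 and 28 in controls, while the *Cd4* points of both genotypes stay close together in each subset.

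*Cd8a*, which encodes the α chain of CD8, rose in both subsets and most in Tconvs. Its values were 17 and 28 in control and 508 and 608 in CD70Tg Tconvs. Treg libraries had 25 and 71 in control and 262 and 223 in CD70Tg libraries. Every CD70Tg library was above every control library. *Cd8a* passed the minimum value for testing only through the CD70Tg libraries in which it was high. Its adjusted p-values therefore depend on a choice of genes that its own rise had entered. With no minimum value it was still called in Tconvs but not in Tregs. In Tconvs the mean went from 22.5 ± 7.78 to 558 ± 70.7 (n = 2 each, SD), or 24.8 times as much, with a log2 fold change of 4.38 (SE 0.39, 95% interval 3.56 to 5.20, adjusted p = 9.7e-07, limma). In Tregs the mean went from 48.0 ± 32.5 to 242.5 ± 27.6 (n = 2 each, SD), or 5.05 times as much, with a log2 fold change of 2.37 (SE 0.39, 95% interval 1.55 to 3.19, adjusted p = 0.0012). The reads behind these values were 16 and 13 against 176 and 1012 in Tconvs. In Tregs they were only 5 and 16 against 25 and 41, so that the ratio of read rates, 4.85, had an exact 95% counting interval of 2.93 to 8.35. The log2 fold change in Tregs was 1.70 without the first and 3.04 without the second control Treg library, and its adjusted p was 0.057 with no minimum value for testing. The responses of Tregs and Tconvs differed by -2.01 (95% interval -3.17 to -0.85, unadjusted p = 0.0021, adjusted p = 0.11), which did not pass over all genes, and passed only without the first control Treg library (adjusted p = 0.013).

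Even so, *Cd8a* stayed a minor transcript beside *Cd4*. Its mean in CD70Tg Tconvs was 153.4 per kb of exon against 7337 for *Cd4*, and in CD70Tg Tregs 66.7 against 4370. The libraries are pools of cells, and fewer cells of a type and less RNA per cell cannot be told apart in them. *Cd8a* lies at chr6:71373427-71379173 (GRCm38, plus strand), next to *Cd8b1* at chr6:71322788-71337494 on the same strand.

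*Cd8b1*, which encodes the β chain against which cells were depleted, moved far less. Its values were 703 and 653 in control and 1055 and 982 in CD70Tg Tconvs, with no overlap. Those of Tregs were 292 and 346 in control and 398 and 408 in CD70Tg libraries, also without overlap. In Tconvs the mean was 50.2% higher in CD70Tg cells, with a log2 fold change of 0.58 (SE 0.17, adjusted p = 0.038, limma) that passed the adjusted p but not the fold threshold. That p was lost with no minimum value and without any 1 of the 4 Tconv libraries or the second control Treg library (adjusted p up to 0.23). In Tregs the log2 fold change was 0.34 (95% interval -0.02 to 0.69, adjusted p = 0.26), and the responses were not shown to differ (difference -0.25, adjusted p = 0.79). Tregs had less *Cd8b1* than Tconvs, by -1.08 in controls (adjusted p = 7.4e-05) and -1.33 in CD70Tg mice (adjusted p = 1.3e-05), and both were called.

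The balance of the CD8 chains shifted towards α. Per kb of exon, *Cd8b1* was 101 and 57.2 times *Cd8a* in control Tconvs and 5.09 and 3.96 times in CD70Tg Tconvs. In Tregs the ratio was 28.6 and 12.0 in control and 3.73 and 4.49 in CD70Tg libraries. *Cd8b1* thus exceeded *Cd8a* per kb in all 8 libraries, in cells depleted of CD8β+ cells, and the 4 CD70Tg libraries had the lowest ratios.

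**Figure D2:**
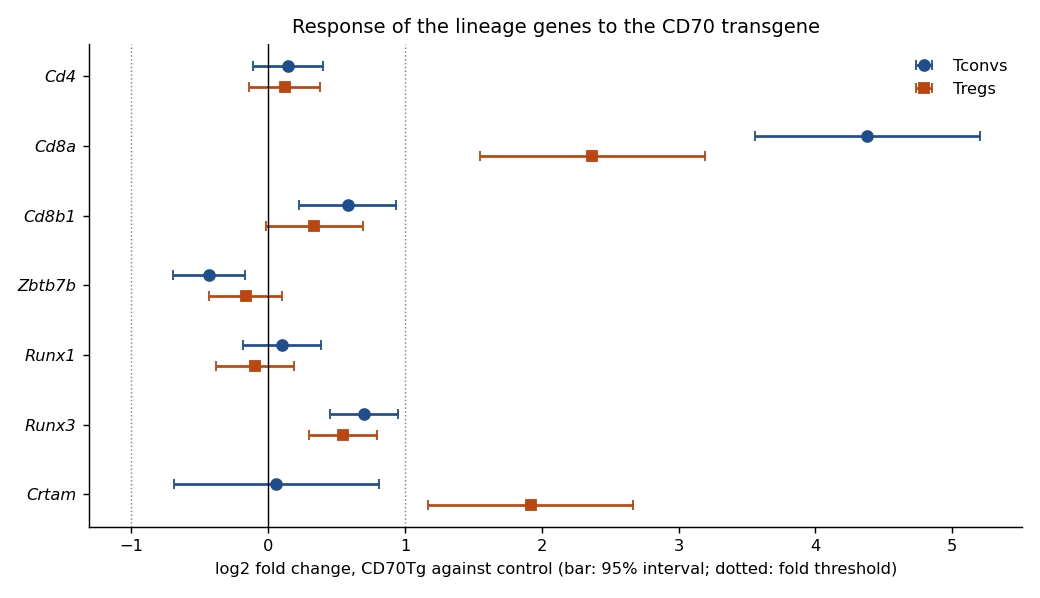
Log2 fold change of CD70Tg against control libraries (x axis, on the log2(value + 5) scale) for the 7 lineage genes in Tconvs (circles) and Tregs (squares), with 95% intervals as bars and dotted lines at the fold threshold of 1. *Cd8a* stands out in both subsets, at 4.38 and 2.37, *Crtam* lies beyond the threshold in Tregs only, and the intervals of *Cd4* and *Runx1* include 0.

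Part of the markers of dendritic cells, some of which carry CD8α, moved with *Cd8a*, although cells carrying CD11c or MHC class II had been depleted before the sort. The summed value of 9 dendritic cell markers was 1089 to 2081 in control and 3244 to 6459 in CD70Tg Tconvs, and 2750 to 3923 in control and 12072 to 13156 in CD70Tg Tregs. Of the 4 of these genes that were tested, *Cd74* and *Itgax* were called higher in Tconvs, against 4.07% of all genes called higher. In Tregs *Cd74*, *H2-Ab1* and *Zbtb46* were called higher, against 2.52% of all genes. *Zbtb46* passed the minimum value only through the CD70Tg Tregs in which it was high, so that its call carries no weight in the list. The call of *Itgax* was lost without the first control or the second CD70Tg Tconv library (adjusted p up to 0.26), and that of *H2-Ab1* without the first control Treg library (adjusted p = 0.052). Most of the sum was *Cd74*, the MHC class II invariant chain. *Xcr1*, a defining receptor of CD8α+ dendritic cells, had values of 7 and 26 in control and 49 and 56 in CD70Tg Tconvs, and 10 and 18 against 63 and 33 in Tregs. *Clec9a*, the other defining gene of these cells, was 6 and 5 against 18 and 5 in Tconvs and 5 and 0 against 21 and 22 in Tregs. *Clec9a* was at or under the floor in both control Treg libraries, and its value of 21 in the first CD70Tg Treg library was also under that library's floor of 31.4. *Siglech* and *Clec10a* were at or under the floor in all 4 Treg libraries. In Tconvs 2 of the 9 genes had lower values in both CD70Tg than in both control libraries, *Siglech* with 6 and 28 against 0 and 3 and *Flt3* with 13 and 17 against 12 and 7, and neither was tested. Among markers of CD8+ T cells other than the CD8 genes, the receptors *Klrc1*, *Klrd1* and *Klrk1* were not called in either subset, and were at or under the floor in all 4 Treg libraries. *Itgae*, the αE integrin, which Tregs also express, rose from 63 and 107 to 277 and 315 in Tconvs (log2 fold change 1.78, adjusted p = 5.7e-06). In Tregs it rose from 4664 and 5031 to 12006 and 13256 (log2 fold change 1.38, adjusted p = 0.00019). The part of these cells in the *Cd8a* values was not tested.

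Calls in the further marker lists stand beside 4.64% of all genes called in Tconvs and 3.6% in Tregs. The sum of 6 NK and NKT cell markers was 538 to 602 in control and 116 to 118 in CD70Tg Tconvs, with both tested genes lower (*Klrb1c* and *Zbtb16*, the latter tested only through its values in control Tconvs), and at most 64 in Treg libraries, with *Klrb1c* lower. The sum of 4 erythroid markers was 741 to 1266 against 804 to 855 in Tconvs, with 0 of 4 called, and 502 to 1381 against 2036 to 3387 in Tregs, with 3 of 4 higher. That of 8 macrophage and granulocyte markers was 1475 to 1481 against 890 to 1165 in Tconvs, with 0 of 5 tested called, and 2565 to 2605 against 2609 to 2867 in Tregs, with *Itgam* and *S100a9* higher, the latter tested only through its values in CD70Tg Tregs. The call of *Itgam* was lost without 3 of the 4 Treg libraries in turn, all but the second control (adjusted p up to 0.19). None of the 3 tested B cell markers (of 7, summing to 171 to 516 in every library) and none of the 8 Treg markers was called in either subset (lowest adjusted p 0.052, *Cd22* in Tregs, and 0.0059, *Ctla4* in Tconvs under the fold threshold).

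*Zbtb7b*, the CD4 lineage factor Th-POK, remained well expressed and was lower in CD70Tg Tconvs. Its values were 6844 and 6138 in control and 4267 and 5413 in CD70Tg Tconvs, with no overlap. Tregs had 5634 and 5688 in control and 5214 and 4888 in CD70Tg libraries. The mean fell by 25.4% in Tconvs, with a log2 fold change of -0.43 (SE 0.12, 95% interval -0.70 to -0.17, adjusted p = 0.039, limma), past the adjusted p but not the fold threshold. That p did not hold in 9 of 17 alternatives (adjusted p up to 0.22), among them the omission of any 1 library but the second CD70Tg Tconv library. Without the first CD70Tg Tconv library, which had the lowest value of all 8, the log2 fold change was -0.26. In Tregs the change was -0.17 (95% interval -0.43 to 0.10, adjusted p = 0.49), and the difference between the subsets, 0.27, did not pass (adjusted p = 0.66). Across the groups the order was control Tconvs, control Tregs, CD70Tg Tregs and CD70Tg Tconvs, and only the last 2 overlapped. The gene lies at chr3:89377644-89394776 (GRCm38, minus strand).

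*Runx3*, the factor that silences *Cd4* in CD8 lineage cells, was higher in CD70Tg cells of both subsets. Values were 2821 and 2516 in control and 4086 and 4602 in CD70Tg Tconvs. In Tregs they were 1820 and 1712 in control and 2539 and 2627 in CD70Tg libraries. The groups did not overlap in either subset, and CD70Tg Tregs reached the level of control Tconvs. The mean was 62.8% higher in Tconvs, with a log2 fold change of 0.70 (SE 0.12, 95% interval 0.45 to 0.95, adjusted p = 0.00073, limma). In Tregs the mean was 46.3% higher, with a log2 fold change of 0.55 (SE 0.12, 95% interval 0.30 to 0.80, adjusted p = 0.0088). Neither passed the fold threshold, and the adjusted p in Tregs was lost with no minimum value, with limma-voom on reads and without any 1 of the 4 Treg libraries (up to 0.092). The difference between the responses was -0.15 (95% interval -0.50 to 0.20, adjusted p = 0.81). Tregs had less *Runx3* than Tconvs, by -0.59 in controls (adjusted p = 0.00065) and -0.75 in CD70Tg mice (adjusted p = 0.00011).

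*Runx1*, which shares the DNA-binding Runt domain with *Runx3*, did not follow it. Its values were 2543 and 2101 in control and 2251 and 2738 in CD70Tg Tconvs, and the groups overlapped. In Tregs they were 2310 and 2089 in control and 2163 and 1947 in CD70Tg libraries, again overlapping. The log2 fold change was 0.10 in Tconvs (95% interval -0.18 to 0.39, adjusted p = 0.78, limma), and turned to -0.04 without the second control or the second CD70Tg Tconv library. In Tregs it was -0.10 (95% interval -0.38 to 0.19, adjusted p = 0.74). In the order of the 4 groups each neighbouring pair overlapped.

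The promoter windows of the RUNX genes are shown because family members that responded differently share a run of bases in 1 window each. RefSeq windows (GRCm38.p6) of 300 bases, from 250 before to 50 after a start, were at hand for 4 of the 7 lineage genes, and not for *Cd4*, *Cd8b1* and *Crtam*. They are written 5′ to 3′ in the direction of the gene, with the RUNX motif TGTGGT, or ACCACA on the opposite strand, in capitals. The windows of the upstream starts of *Runx3* (chr4:135120395-135120694, plus strand) and *Runx1* (chr16:92826025-92826324, minus strand) are followed by that of *Runx2* (chr17:44814578-44814877, minus strand), the third member of the family, and of *Cd8a* (chr6:71373177-71373476, plus strand).
Runx3: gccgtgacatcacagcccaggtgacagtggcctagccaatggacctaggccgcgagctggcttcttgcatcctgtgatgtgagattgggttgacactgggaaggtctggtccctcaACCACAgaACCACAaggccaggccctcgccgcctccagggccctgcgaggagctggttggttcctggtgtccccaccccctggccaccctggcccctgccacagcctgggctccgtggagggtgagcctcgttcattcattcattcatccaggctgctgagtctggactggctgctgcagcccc
Runx1: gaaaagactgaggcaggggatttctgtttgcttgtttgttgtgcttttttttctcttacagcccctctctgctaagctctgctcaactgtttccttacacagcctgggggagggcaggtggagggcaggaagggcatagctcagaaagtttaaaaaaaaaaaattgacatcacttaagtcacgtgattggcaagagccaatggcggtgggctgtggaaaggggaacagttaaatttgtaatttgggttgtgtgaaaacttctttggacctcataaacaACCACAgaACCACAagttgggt
Runx2: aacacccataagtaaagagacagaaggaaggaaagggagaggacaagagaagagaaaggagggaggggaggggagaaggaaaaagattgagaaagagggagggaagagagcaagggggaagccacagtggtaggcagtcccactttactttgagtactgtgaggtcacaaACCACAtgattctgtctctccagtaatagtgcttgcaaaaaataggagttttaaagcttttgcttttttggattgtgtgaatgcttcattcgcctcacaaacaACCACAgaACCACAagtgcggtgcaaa
Cd8a: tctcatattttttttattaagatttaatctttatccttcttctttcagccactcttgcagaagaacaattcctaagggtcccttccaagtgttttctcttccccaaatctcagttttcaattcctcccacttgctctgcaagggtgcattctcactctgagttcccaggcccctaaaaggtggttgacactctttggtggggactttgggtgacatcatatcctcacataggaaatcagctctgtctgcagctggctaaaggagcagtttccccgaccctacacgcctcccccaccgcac
The longest run shared by the *Runx1* and *Runx3* windows was the 18 bases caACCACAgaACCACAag, with 2 motif matches. It began at base 27 after the start in *Runx1*, 22 after it in *Runx2* and 136 before it in *Runx3* (position -136). Only 4 of 32851 RefSeq windows held it, those of the 3 RUNX genes and of *Gm16225*. A RUNX match of any kind was in 16.8% of all windows, and 2 or more in 1.81%. The *Cd8a* window held 0 matches, as did the upstream *Zbtb7b* window, while the downstream *Zbtb7b* window (chr3:89387622-89387921, minus strand) held 1, at position -89. The T-box motif AGGTGTGA, which is bound by factors such as Eomes, was in 1.28% of all windows on either strand and in 0 of the 7 windows of the lineage genes. A second, downstream window each of *Runx1* (chr16:92697280-92697579, minus strand) and *Runx3* (chr4:135152295-135152594, plus strand) held 0 RUNX matches and is not printed. These matches describe letters in a window, not sites that are bound.

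*Runx2*, which is best known from bone and is a partner gene here rather than 1 of the 7, responded far more than *Runx3*. Its values were 87 and 57 in control and 715 and 1214 in CD70Tg Tconvs, and 423 and 548 against 1338 and 1430 in Tregs. The groups were far apart in both subsets. In Tconvs the log2 fold change was 3.63 (SE 0.25, adjusted p = 4.1e-08, limma), against 1.51 in Tregs (SE 0.25, adjusted p = 0.0012). Of the RUNX genes, all of which held the promoter run above, *Runx2* rose past the fold threshold, *Runx3* was moderately higher and *Runx1* overlapped its controls. Values per gene do not show which start was used, and a link between the run and these changes was not tested. *Cbfb*, which encodes the shared partner protein of the RUNX factors, was not called, at -0.13 in Tconvs and -0.16 in Tregs (adjusted p = 0.63 and 0.47).

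Within each library, the balance of *Runx3* to *Zbtb7b* was higher in CD70Tg cells. The ratio of their values was 0.412 and 0.41 in control Tconvs and 0.958 and 0.85 in CD70Tg Tconvs. The Treg ratios were 0.323 and 0.301 in control and 0.487 and 0.537 in CD70Tg libraries. No groups overlapped. On the log2 scale the mean ratio went from -1.28 ± 0.006 to -0.15 ± 0.12 in Tconvs (SD, n = 2 each) and from -1.68 ± 0.07 to -0.97 ± 0.10 in Tregs (SD, n = 2 each). For *Cd8a* to *Cd4*, the ratio was 0.000617 and 0.00108 against 0.0163 and 0.0218 in Tconvs, and 0.00153 and 0.00441 against 0.0148 and 0.0127 in Tregs. A two-sided exact permutation test gave p = 0.333 for each ratio in each subset, the smallest that 2 against 2 libraries allow, so that these shifts are a description.

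**Figure D3:**
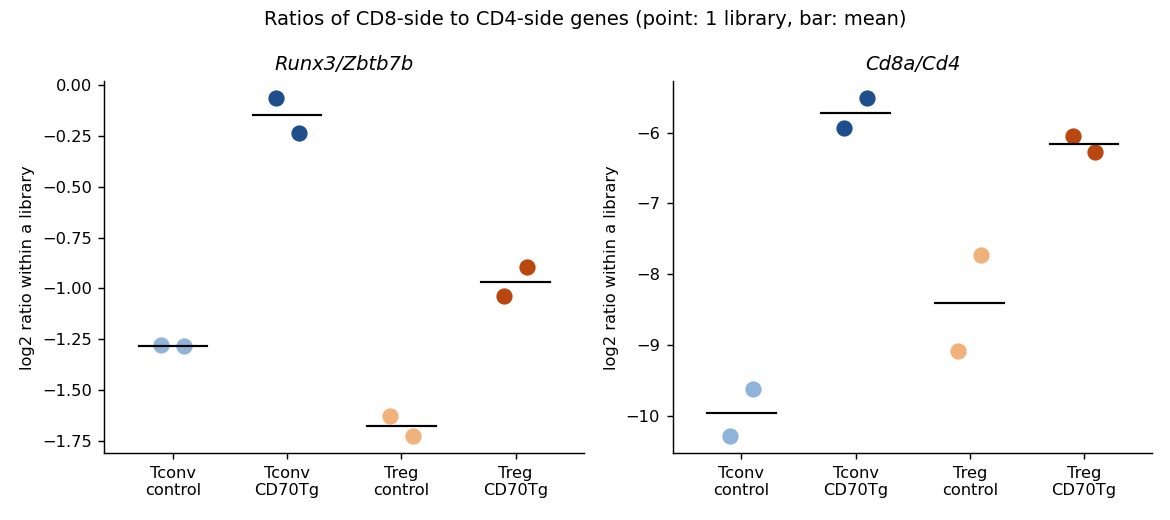
Log2 ratio within each library (y axes, after adding 5 to each value) of *Runx3* to *Zbtb7b* and of *Cd8a* to *Cd4* in the 4 groups, with 1 point per library and a bar at the mean of 2. Both ratios are higher in the CD70Tg libraries, for *Runx3* to *Zbtb7b* with means of -0.15 against -1.28 in Tconvs and -0.97 against -1.68 in Tregs.

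*Crtam* was mainly a Tconv transcript in these libraries and was higher with the transgene in Tregs. Its values were 339 and 264 in control and 320 and 304 in CD70Tg Tconvs, which overlapped. In Tregs they were 25 and 9 in control and 74 and 71 in CD70Tg libraries. The Treg groups did not overlap, although these values rest on 5 and 2 reads against 7 and 13, and the control library with 9 lay under its floor of 13.1. The log2 fold change was 0.06 (SE 0.35, 95% interval -0.69 to 0.81, adjusted p = 0.96, limma) in Tconvs, and it was -0.12 without the second control Tconv library. In Tregs it was 1.92 (SE 0.35, 95% interval 1.17 to 2.67, adjusted p = 0.0033), and the ratio of read rates was 4.41 with an exact 95% counting interval of 1.79 to 12.3. The value in Tregs was 2.47 without the first and 1.37 without the second control Treg library, and the call was lost with no minimum value and with limma-voom on reads (adjusted p up to 0.13). The responses differed by 1.86 (unadjusted p = 0.0018, adjusted p = 0.11), which passed only without the first control Treg library (adjusted p = 0.023). Tregs held less *Crtam* than Tconvs, by -3.89 in controls (adjusted p = 2.6e-07) and -2.03 in CD70Tg mice (adjusted p = 0.00027). The gene lies at chr9:40969691-41004628 (GRCm38, minus strand), and its level per kb was 58.8 in control Tconvs.

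In all, 1 of the 7 lineage genes (*Cd8a*) was called in Tconvs, where 4.64% of all tested genes were called in either direction. In Tregs 2 of 7 were called (*Cd8a* and *Crtam*), against 3.6% of all genes. *Cd8a* passed the minimum value only through the CD70Tg libraries in which it was high, so that it carries no weight in these counts. Without the fold threshold the numbers were 4 of 7 in Tconvs (*Cd8a*, *Cd8b1* and *Runx3* higher, *Zbtb7b* lower) against 8.8% of all genes, and 3 of 7 in Tregs (*Cd8a*, *Crtam* and *Runx3* higher) against 7.4%. For the difference between the responses, limma passed 0 of 7 after adjustment, against 1.02% of all genes, and 2 at an unadjusted p under 0.05, against 10.7%. Libraries of the genotypes did not overlap for 5 of 7 in Tconvs and 6 of 7 in Tregs, but this held for 45.1% and 53.7% of all genes. Between the subsets, 2 of 7 were called lower in Tregs of controls (*Cd8b1* and *Crtam*), against 4.43% of all genes, and 3 of 7 in CD70Tg mice (also *Cd8a*), against 4.94%. Without the fold threshold, 4 of 7 were lower in Tregs of controls, against 18.4% of all genes, and 5 of 7 in CD70Tg mice, against 20.1%. The lower *Cd8a* in CD70Tg Tregs (-1.18, adjusted p = 0.022) lost its call with no minimum value and without any 1 of the 4 CD70Tg libraries (adjusted p up to 0.12).

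Factors and surface proteins that act with these genes in lineage choice were taken as a list of 18 partners. Of these, 1 was called higher (*Runx2*) and 0 lower in Tconvs, where 4.64% of all genes were called in either direction, with a median log2 fold change of -0.10 beside 0.007 over all genes. In Tregs 1 was higher (*Runx2*) and 1 lower, against 3.6% of all genes, with a median of -0.19 beside -0.053. The lower gene was *Cd40lg*, the CD40 ligand through which helper cells act on antigen-presenting cells, with values of 335 and 395 in control and 115 and 185 in CD70Tg Tregs. Its log2 fold change there was -1.29 (adjusted p = 0.00045, limma), and the call was lost without the first CD70Tg Treg library and with limma-voom on reads. In Tconvs *Cd40lg* was 2708 and 2771 against 2000 and 2007 (log2 fold change -0.45, adjusted p = 0.19). *Tox*, needed for CD4 lineage development, was higher in CD70Tg Tconvs, with values of 2784 and 2080 against 3997 and 4223 (log2 fold change 0.77, adjusted p = 0.0012, under the fold threshold). Treg values were 3407 and 3810 against 2905 and 3198 (adjusted p = 0.33). *Gata3*, which acts upstream of *Zbtb7b* in the thymus, had log2 fold changes of -0.07 and 0.05 in Tconvs and Tregs (adjusted p = 0.84 and 0.87). *Myb* and *Lef1* were lower in CD70Tg Tconvs by the adjusted p alone, at -0.70 (adjusted p = 0.042) and -0.45 (adjusted p just under 0.05), and *Satb1* in CD70Tg Tregs, at -0.50 (adjusted p = 0.038). None of the 3 held without every library in turn. *Myb* had -0.45 without the first control Tconv library (adjusted p = 0.42), *Lef1* -0.26 without the second CD70Tg Tconv library (adjusted p = 0.37) and *Satb1* -0.33 without the first CD70Tg Treg library (adjusted p = 0.37). *Tcf7*, which encodes the TCF-1 partner of *Lef1*, had -0.39 in both subsets (adjusted p = 0.10 in each). *Cadm1*, whose product is the ligand of CRTAM, and *Scrib*, its intracellular partner, were not called in either subset (lowest adjusted p 0.33).

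Most genes of the cytotoxic programme rose in Tconvs and many in Tregs. Of 22 genes of the programme, 17 were called higher and 0 lower in Tconvs, where 4.07% of all genes were called higher, with a median log2 fold change of 1.65 beside 0.007 over all genes. The number was 14 to 20 when any 1 library was left out. In Tregs 11 were higher and 0 lower, against 2.52% of all genes called higher, with a median of 0.97 beside -0.053 and 8 to 11 higher when 1 library was left out, and 7 with limma-voom on reads. Several of these genes were singled out by the study from the same libraries, so that the counts are no independent evidence of direction. *Gzma*, *Ccl3* and *Ccl4*, called higher in both subsets, passed the minimum value only through the CD70Tg libraries in which they were high. Their calls carry no weight in the counts. *Eomes*, a T-box factor of cytotoxic cells, rose from 352 and 258 to 2807 and 3386 in Tconvs (log2 fold change 3.33, adjusted p = 4.1e-09, limma). In Tregs it rose from 93 and 75 to 1547 and 1458 (log2 fold change 4.09, adjusted p = 2.2e-09). *Prf1*, which encodes perforin, rose from 1389 and 1120 to 2971 and 3335 in Tconvs (log2 fold change 1.33, adjusted p = 1.1e-05). In Tregs it went from 219 and 233 to 1056 and 1001 (log2 fold change 2.16, adjusted p = 3.1e-07). *Nkg7*, a cytotoxic granule protein gene, went from 744 and 829 to 9624 and 10964 in Tconvs and from 316 and 491 to 3657 and 3681 in Tregs, with log2 fold changes of 3.70 (adjusted p = 7.7e-10) and 3.20 (adjusted p = 5.9e-09). Among the factors, *Tbx21*, which encodes T-bet, was called in Tregs (1.28, adjusted p = 0.019), a call that was lost without any 1 of the 4 Treg libraries (adjusted p up to 0.13) and with limma-voom on reads (0.43). In Tconvs it was 819 and 635 against 848 and 2368 (log2 fold change 0.97, adjusted p = 0.066). The changes of *Cd4*, *Cd8b1*, *Zbtb7b*, *Runx1* and *Runx3* lay between -0.43 and 0.70 in both subsets.

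**Figure D4:**
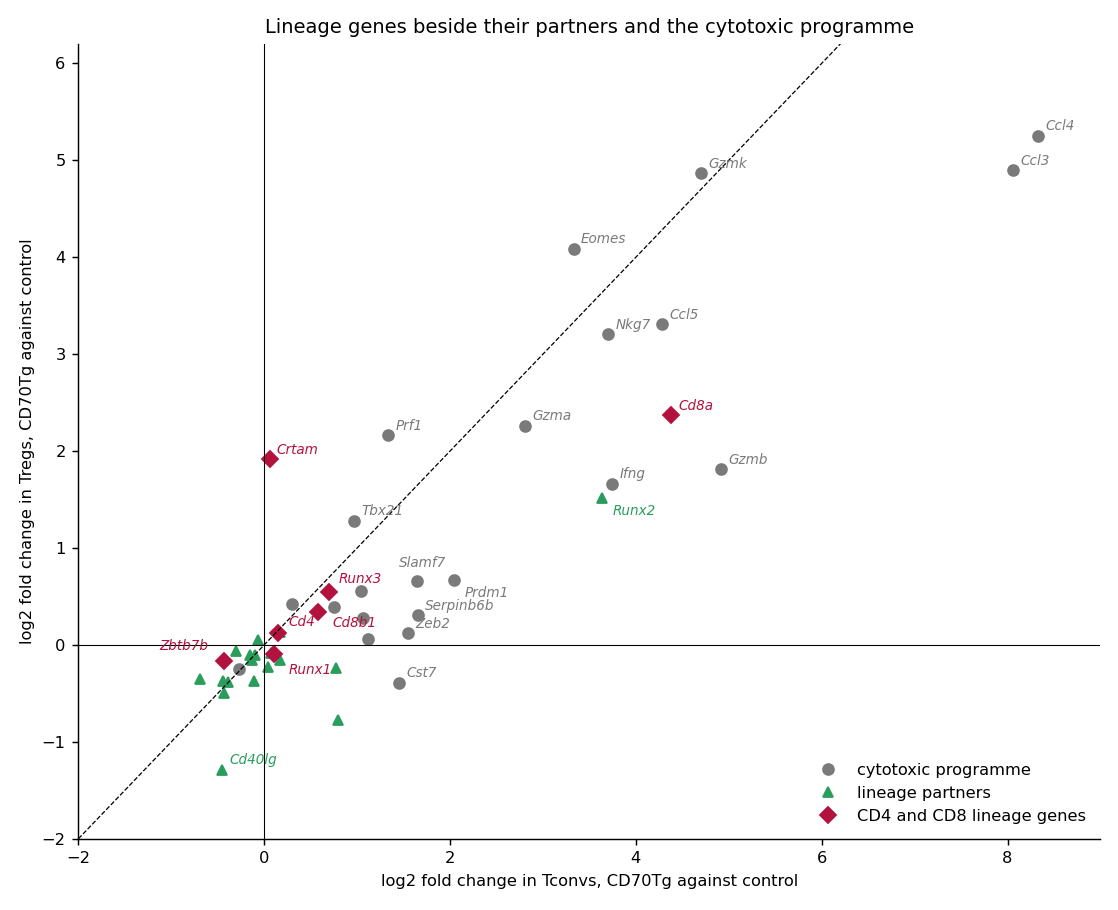
Log2 fold change of CD70Tg against control in Tconvs (x axis) and in Tregs (y axis) for the 7 lineage genes (diamonds), their 18 partners (triangles) and 22 genes of the cytotoxic programme (circles), with equal change on the dashed line. *Cd8a* lies at 4.38 and 2.37, *Runx2* at 3.63 and 1.51, *Runx3* at 0.70 and 0.55 and *Cd8b1* at 0.58 and 0.34.

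Over the 8 libraries, the genes whose log2 values followed each lineage gene most closely were named by Pearson's r, as a description only, since libraries of a group share their state and the deepest and shallowest differ in depth. *Cd8a* was followed by *Ret* (r = 0.994), *Gm16702* (0.984) and *Enpp6* (0.983). For *Cd4* these were *Gramd3* (0.993), *Psap* (0.992) and *Pde4b* (0.991). *Cd8b1* was closest to *Fasl*, the Fas ligand gene (0.992), *Mir1668* (0.992) and *Cyp2s1* (0.988). *Zbtb7b* had looser companions, namely *Nt5dc1* (0.959), *Emilin1* (0.949) and *9430038I01Rik* (0.929). *Runx3* was closest to *Arsb* (0.987), *Sytl3* (0.985) and *Psmb10*, an immunoproteasome subunit gene (0.983). The corresponding genes were *Ap3s2* (0.976), *Atg7* (0.974) and *Nup62* (0.961) for *Runx1*, and *Aldoa* (0.992), *Smap2* (0.991) and *Wscd2* (0.99) for *Crtam*. Antisense genes overlap exons of *Runx1* (*Gm26626*, over 0.9% of the exon length) and of *Zbtb7b* (*Gm15417*, 2.1%), and the strand setting of the counting is not given in the sources used here, so that their reads cannot be told apart over these stretches.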

How the data were processed

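RNA was sequenced from Tconvs and Tregs of CD27+/- control and CD70Tg mice, with 2 libraries per group. Reads were trimmed with Trimmomatic 0.36, mapped to mm10 with STAR 2.5.3 and counted with HTSeq 0.9.1 by the authors, who scaled each library to 20 M reads and rounded up to whole numbers. These deposited values are treated as a score, since they are rounded, and not as counts. Totals were 19963628 to 20164600 per library. The annotation and strand setting are not given in the sources used here.

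Libraries were grouped by the column labels and are called first or second by column order. The 4131 rows with clone-derived names were left out, because their low values follow the steps of other libraries, and for the 97 names on several rows the row with the largest total was kept, which left 48404. The 12798 genes that reached 60 in 2 or more libraries were tested. The log2(value + 5) values were fitted with limma 3.58.1 (R 4.3.3, trend in the prior variance, 12.3 prior degrees of freedom) with a coefficient per group over the 8 libraries, with Benjamini-Hochberg adjustment per contrast. The contrasts were CD70Tg against control in each subset, the difference of these, and Tregs against Tconvs in each genotype. Reads behind a value were taken from the step that 1 read is worth. In simulated data with 200 of 12798 genes changed 4-fold, 90.5% were recovered in Tconvs (2 false of 183 calls) and 87.5% in Tregs (1 false of 176). The simulation pooled the spread of a gene over all groups and drew no reads. It therefore does not show what share is recovered at the lower depth of the Treg libraries. GENCODE M21 (GRCm38) gave positions for 99.7% of identifiers, and RefSeq gave the promoters.

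Other settings tried were pseudocounts of 1 and 20, other minimum values (none, a mean of 60 or more, over 10 in every library), TMM and median-of-ratios factors, fitting only the 4 libraries of a contrast, no fold threshold and leaving out each library. Limma-voom on reads was added after seeing the data. The lineage genes and the gene lists (partners, cytotoxic programme, markers of CD8 T, T, Treg, NK and NKT, B, dendritic, macrophage and granulocyte, and erythroid cells) were chosen with earlier results of these data known. Named were all lineage genes, genes of the partner and cytotoxic lists, called or defining markers, and the 3 genes most like each lineage gene.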

Additional observations from a re-analysis of the deposited data

Results flagged for a closer look

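Of the lineage genes, none had a response to the CD70 transgene that differed between Tregs and Tconvs by limma's interaction test (adjusted p = 0.11 for the closest, *Cd8a* and *Crtam*), where 1.02% of all genes did. Among their partners and the cytotoxic programme, 6 genes did, each with a lower value of the change in Tregs, and are given as values without explanation. The log2 fold change of *Runx2* was smaller in Tregs than in Tconvs, with a difference of -2.12 (adjusted p = 0.005). That of *Tox* differed by -1.01 (adjusted p = 0.013), with 0.77 in Tconvs and -0.24 in Tregs. *Gzmb*, the granzyme B gene, differed by -3.10 (adjusted p = 0.00086), from values of 72 and 51 against 1323 and 2941 in Tconvs and 850 and 666 against 2174 and 3246 in Tregs. *Ccl3*, a chemokine gene, differed by -3.16 (adjusted p = 0.0097), from 8 and 3 against 2415 and 3050 in Tconvs and 15 and 53 against 868 and 1175 in Tregs. It was tested only through the CD70Tg libraries in which it was high. The control value of 3 lay under its floor of 6.28, and the size of the difference depends on the constant of 5 added to each value. *Cst7*, the cystatin F gene, differed by -1.85 (adjusted p = 0.0012), with 1.45 in Tconvs and -0.39 in Tregs. *Prdm1*, which encodes Blimp-1, differed by -1.38 (adjusted p = 0.0043), with 2.04 in Tconvs and 0.67 in Tregs.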

How the results depend on the processing

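Of 583 alternative fold changes of the lineage genes, 539 kept direction and side of the threshold, 29 lost the threshold, 6 gained it and 9 changed sign. Without the fold threshold, 4 lineage genes passed in Tconvs, 4 between subsets in controls and 5 in CD70Tg mice, and of the partners 2 were higher and 2 lower in Tconvs and 2 lower in Tregs. In Tregs 0 lineage genes were called with no minimum value and 1 with a value above 10 in every library or with limma-voom on reads. Between subsets in controls 1 was called with a value above 10 in every library, where *Crtam* is not tested. Leaving out 1 library, 0 to 2 differed between the responses (2 without the first control Treg library), and 0 to 1 partners were lower in Tregs (0 without the first CD70Tg Treg library). With voom, 0 partners were lower and 7 cytotoxic genes higher in Tregs. Of 27 changes of other named genes past the adjusted p, 16 lost it with no minimum value. The signs that turned belong to changes near 0. For *Cd4*, the difference between responses was 0.070 with TMM and 0.057 with median-of-ratios factors, and -0.104 to 0.058 without 1 library. Without 1 library, *Zbtb7b* between subsets in CD70Tg mice ranged from -0.10 to 0.24, *Runx1* in Tconvs from -0.038 to 0.244 and between subsets in controls from -0.211 to 0.064, and *Crtam* in Tconvs from -0.12 to 0.24. The log2 ratio of *Cd8a* to *Cd4* in control Tconvs was -9.31 with a pseudocount of 20 and -9.95 with 5. The causes were not tested. No paired analysis was possible because the columns of the table carry no replicate numbers. In Tregs, with 1.92 to 4.56 M reads, values under the floor of up to 31.4 could not be told from 0.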

Other observations

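Genes within 100 kb of the lineage genes were looked at after values had been seen. Of 10 tested neighbours of *Cd4*, 2 were called higher in Tconvs and 0 in Tregs, where 4.07% and 2.52% of all genes were called higher. *Lag3*, which lies beside *Cd4* at chr6:124904361-124911705 and encodes an inhibitory receptor that binds MHC class II, went from 785 ± 772 in control to 6916 ± 1552 in CD70Tg Tconvs (n = 2 each, SD), or 3.58 on the log2 scale (limma, adjusted p = 5.6e-05). In Tregs it was 2184 ± 507 against 4322 ± 186 (SD, n = 2 each), which was not called (log2 fold change 1.00, adjusted p = 0.21). *Cdca3*, a cell cycle gene, was the other one, at 1.11 in Tconvs (adjusted p = 0.016). None of the 3 tested neighbours of *Cd8a* (*Krcc1*, *Cd8b1* and *Rmnd5a*) was called in either subset, nor was any of the 10 tested neighbours of *Zbtb7b*. The only tested neighbour of *Runx3*, *Clic4*, was called in Tconvs (1.08, adjusted p = 0.00044) and was at 0.88 in Tregs (adjusted p = 0.0047), under the fold threshold.

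Of the NK and NKT cell markers, *Klrb1c*, which encodes NK1.1, had values of 403 and 423 in control and 75 and 68 in CD70Tg Tconvs (log2 fold change -2.45, adjusted p = 0.0027, limma). In Tregs it was 64 and 36 in control and 0 and 11 in CD70Tg libraries, the latter both under the floor. It was called lower there too (log2 fold change -2.57, adjusted p = 0.0035), a size that depends on the constant of 5 added to each value. That call was lost without the first control Treg library (adjusted p = 0.054) and with limma-voom on reads (0.10). *Zbtb16*, which encodes the NKT cell factor PLZF, was 119 and 151 in control and 29 and 19 in CD70Tg Tconvs (log2 fold change -2.28, adjusted p = 0.018), lost without the second CD70Tg Tconv library (adjusted p = 0.19). With a pseudocount of 1 the adjusted p in Tconvs was 0.066 for *Klrb1c* and 0.20 for *Zbtb16*.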
